A study of Mus musculus with 45 samples.

Results

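The 9 genes described here are known as surface or secretion markers of plasma cells, and their levels were followed across the cultures. They are Sdc1, Tnfrsf17, Tnfrsf13b, Tnfrsf13c, Mzb1, Slamf7, Ly6c2, Ell2 and Pou2af1. They were taken by symbol, and 9 of 9 were found among the 30317 symbols of the expression table. The RNA came from follicular B cells of the mouse spleen, genotype B6.Blimp1GFP/+, in which 1 allele of Blimp1 carries a GFP reporter. Every group shared that genotype, and no age was given. The B cells were grown on a layer of OP9 cells, stromal cells of mouse bone marrow, or of OP9-DL1 cells, the same line made to display the Notch ligand Delta-like 1. They received LPS of Salmonella enterica or F(ab')2 antibody against IgM, each at 10 µg/mL, for 20, 44 or 68 h, or were left unstimulated for 68 h. A further group held Blimp1+ cells sorted from OP9-DL1 cultures with LPS, for which the labels name no time. Each of the 15 groups had 3 libraries, 45 in all, 21 from OP9 and 24 from OP9-DL1. The labels do not say whether the 3 libraries of a group came from separate mice or cultures, so the p-values measure the spread among these libraries, which may be technical.

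The members serve different steps of the antibody response. Tnfrsf13c (BAFF receptor), Tnfrsf13b (TACI) and Tnfrsf17 (BCMA) are the receptors for the survival cytokines BAFF and APRIL, and B cells are known to lose the BAFF receptor and gain BCMA as they become plasma cells. Sdc1 (CD138, a heparan sulfate proteoglycan), Slamf7 (a receptor of the SLAM family) and Ly6c2 (a GPI-anchored protein of the Ly6 family) are displayed at the cell surface. Mzb1 is a chaperone of the endoplasmic reticulum that works with Hsp90b1 on immunoglobulin, Ell2 is an RNA polymerase elongation factor that favours the secreted form of immunoglobulin heavy chain mRNA, and Pou2af1 (OCA-B) is the B cell coactivator of the octamer factors Pou2f1 and Pou2f2. Prdm1, which encodes Blimp1, and Xbp1 are central regulators of the plasma cell program.

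Promoter windows of RefSeq (build GRCm38.p6), 250 bases upstream of the start, were found for 8 members. Both strands were searched for the octamer ATGCAAAT, the Rbpj core GTGGGAA, the Xbp1-type core GACGTGG, an interferon-regulatory-factor-type motif (GAAA, any 2 bases, GAAA) and an NF-kB-type motif (GGGA, any base, TTTCC). Among 32851 windows of the same length these were present in 1.6%, 5.42%, 1.97%, 2.98% and 0.356%, in that order. The 8 members' windows held 2 matches, which did not overlap any other. Pou2af1, one of the members highest in Blimp1+ cells, had the GACGTGG core on the forward strand at bases 60 to 54 upstream. Tnfrsf17 had a reverse-strand match to the interferon-regulatory-factor-type motif at bases 101 to 92 upstream. The windows of these genes are shown with the match in capitals, beside that of Tnfrsf13b, which held none of the 5 motifs and whose gene was highest with LPS. The windows lay at chr9:51213440-51213689, chr16:11313559-11313808 and chr11:61126505-61126754, all on the forward strand. In the GRCm38 annotation of GENCODE M21 the genes themselves span chr9:51213708-51240080 (Pou2af1), chr16:11313812-11320074 (Tnfrsf17) and chr11:61126755-61149372 (Tnfrsf13b). Sdc1 lies at chr12:8771323-8793715, Ell2 at chr13:75706757-75772364, Slamf7 at chr1:171632403-171653035, Ly6c2 at chr15:75108158-75111970 and Tnfrsf13c at chr15:82221743-82224369, the last 3 on the reverse strand.
Pou2af1: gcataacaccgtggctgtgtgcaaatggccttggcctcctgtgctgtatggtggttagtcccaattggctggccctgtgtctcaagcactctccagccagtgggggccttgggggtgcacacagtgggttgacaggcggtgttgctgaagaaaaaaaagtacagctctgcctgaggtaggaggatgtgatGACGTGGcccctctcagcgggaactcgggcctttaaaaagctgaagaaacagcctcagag
Tnfrsf17: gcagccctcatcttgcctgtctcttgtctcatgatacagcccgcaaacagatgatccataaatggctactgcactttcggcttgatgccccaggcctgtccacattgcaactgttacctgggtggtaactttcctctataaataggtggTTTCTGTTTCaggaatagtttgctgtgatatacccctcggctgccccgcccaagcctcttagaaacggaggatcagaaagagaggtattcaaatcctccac
Tnfrsf13b: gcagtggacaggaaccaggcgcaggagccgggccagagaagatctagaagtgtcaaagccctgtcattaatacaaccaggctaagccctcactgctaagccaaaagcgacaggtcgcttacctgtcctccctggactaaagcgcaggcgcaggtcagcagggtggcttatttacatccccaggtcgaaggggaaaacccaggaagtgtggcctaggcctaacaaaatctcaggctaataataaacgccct

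Some members share sequence with other genes, which limits how surely short reads can be assigned to them. Ly6c2 and its neighbour Ly6c1 were 97.7% identical over 393 coding bases of the GRCm38 annotation (GENCODE M21), with 9 differences. Bases 7 to 66 of the coding sequence are shown because they hold 6 of those differences, in capitals. Of the 31-base words of Ly6c2 transcripts, 21.4% also occurred in Ly6c1. For Mzb1, 55.1% of such words also occurred in the neighbouring gene Spata24, so the levels of Ly6c2 and Mzb1 depend on how reads were divided between the genes. Spata24 was listed at 6.18 to 80.9 over the 45 libraries and at 22.7 to 34.5 in the Blimp1+ cells, in the scaled TPM defined below.
Ly6c2: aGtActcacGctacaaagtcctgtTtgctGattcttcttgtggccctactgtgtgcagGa
Ly6c1: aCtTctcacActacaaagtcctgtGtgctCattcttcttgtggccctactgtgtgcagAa

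Levels are given as scaled TPM: TPM values as the authors deposited them, divided by a size factor for each library. Library depth was 3.07e+06 to 2.91e+07 estimated reads, with a median of 6.74e+06. Changes are differences of log2(scaled TPM + 1) with the SE of limma, which understate the change of low genes. In the main fit the SE and p-value of a gene use its spread pooled over the 15 groups. They do not measure the spread of the groups compared alone. A gene was called at a Benjamini-Hochberg adjusted p under 0.05 over the 15614 genes tested. The members passed the filter on low values (1 TPM in at least 3 libraries) in 9 of 9 cases. B cell identity markers (a list of 6, with Cd79a, Ms4a1 and Pax5 among them) were present in every library. T cell markers without Lck summed to at most 20.5. Lck itself ran from 4.69 to 380 scaled TPM, and with it the list of 7 summed to at most 384. That full sum was 338.5 to 384.2 in OP9-DL1 with anti-IgM at 68 h and 19.44 to 35.18 in OP9-DL1 with LPS at 44 h. Stroma markers stood apart in the 3 unstimulated OP9 libraries, with sums of 1690 to 14600 against 27.5 to 371 in the other 42 libraries, and so did myeloid markers, with 45.6 to 138 against 1.59 to 13.9. In 10 libraries Actb was above 5000 TPM (12400 to 85300, against 217 to 2970 in the others). They were all 3 of OP9-DL1 with LPS at 20 h, all 3 of OP9 with anti-IgM at 20 h, and replicate 3 of unstimulated OP9, of OP9 with LPS at 68 h, of OP9-DL1 with LPS at 68 h and of OP9 with anti-IgM at 68 h. They are called the high-Actb libraries below.

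Of the BAFF and APRIL receptors, Tnfrsf13b and Tnfrsf13c were abundant and Tnfrsf17 was near the limit of detection. Tnfrsf13b ranked at the 98.4th percentile of mean TPM among the genes tested and Tnfrsf13c at the 94th. Tnfrsf13b was higher in each LPS group than in any anti-IgM group by the group means. Its means with LPS ran from 738 ± 471 (SD, n = 3, OP9, 20 h) to 1338 ± 198 (OP9, 68 h). With anti-IgM they ran from 273 ± 105 (OP9, 20 h) to 400 ± 14 (OP9-DL1, 68 h). Unstimulated cells had 308 ± 35.4 on OP9-DL1 and 99.1 ± 69.6 on OP9. Adjacent groups in this order overlapped except for OP9 with anti-IgM at 20 h and unstimulated OP9.

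Tnfrsf13c varied less, with a 4.89-fold span between its highest and lowest group means. The highest means were 305 ± 92.2 in OP9 with LPS at 68 h and 301 ± 17.7 in the Blimp1+ cells. The lowest were 75.3 ± 9.19 in OP9-DL1 with LPS at 20 h and 62.4 ± 40.3 in unstimulated OP9. The genes with the closest pattern over the 15 group means included Pou2f2 for Tnfrsf13c (r = 0.896) and Zbtb32 (r = 0.935) and Batf (r = 0.928) for Tnfrsf13b. These are descriptions over group means that share libraries and scaling.

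Tnfrsf17 was listed at 0 in 24 of 45 libraries and reached 1 TPM in 6. The largest estimated read number in a library was 7.94. In the Blimp1+ cells it was listed at 0, 0.26 and 0.558 scaled TPM, from at most 1.97 estimated reads, so no difference was detectable at this depth. The ligands were low as well: APRIL (Tnfsf13) reached 3.67 and BAFF (Tnfsf13b) 0.751 scaled TPM in any library.

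Sdc1 was highest in unstimulated cells and in cells with anti-IgM at 44 and 68 h, and was low with LPS, the Blimp1+ cells included. On OP9-DL1 the unstimulated libraries had 26.3, 30.4 and 25.8 scaled TPM. OP9 with anti-IgM at 44 h had 27.3, 27.6 and 26.9, and OP9-DL1 with anti-IgM at 44 h had 17.2, 13.6 and 15.8. In OP9-DL1 with LPS the values were 2.85, 4 and 3.33 at 44 h and 1.9, 2.28 and 0 at 68 h. The Blimp1+ libraries had 3.71, 4.92 and 2.23 (79, 88 and 37 estimated reads) and ranked 12th of the 15 groups, overlapping their neighbours in the order. The group mean of Sdc1 was 102 ± 87.8 in unstimulated OP9, where the libraries had 183, 114 and 9.01 and the stroma marker sums in the same order were 14600, 9557 and 1693. Sdc1 is also made by stromal cells, and the part of stroma RNA in that value was not tested.

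Slamf7 was highest in the Blimp1+ cells (92.1 ± 15.1) and in OP9-DL1 with anti-IgM at 68 h (79.9 ± 4.13), and these groups overlapped. Its other stimulated groups lay between 22.7 ± 1.5 (OP9-DL1, LPS, 20 h) and 56.2 ± 4.75 (OP9-DL1, LPS, 68 h). Ly6c2 was scarce, with a median of 3.41 estimated reads in a library. It was highest in unstimulated cells, with 10.7, 1.15 and 7.5 scaled TPM on OP9 and 4.26, 2.54 and 3.31 on OP9-DL1. The Blimp1+ cells followed with 1.65, 1.23 and 2, and every other group mean was at most 1.19. Its close relative Ly6c1 had 3.46 to 5.35 in the Blimp1+ cells and 0 to 41.3 over all libraries.

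The members tied to secretion, Mzb1, Ell2 and Pou2af1, were each highest in the Blimp1+ cells, without overlap with any other group. How many of all genes share that trait was not counted. Mzb1, at the 98.5th percentile of mean TPM, was 4037 ± 472 there and spanned 49.5-fold between its highest and lowest group means. The next groups were OP9 with LPS at 68 h at 717 ± 199 and OP9-DL1 with LPS at 68 h at 655 ± 226, which overlapped each other. Ell2 was 48.1 ± 4.11 in the Blimp1+ cells and at most 18.2 ± 13.8 elsewhere. Pou2af1 was 430 ± 29.9 in the Blimp1+ cells, 207 ± 18.7 in OP9-DL1 with anti-IgM at 68 h, and between 25.3 ± 16.4 and 157 ± 3.99 in the rest.

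**Figure D1:**
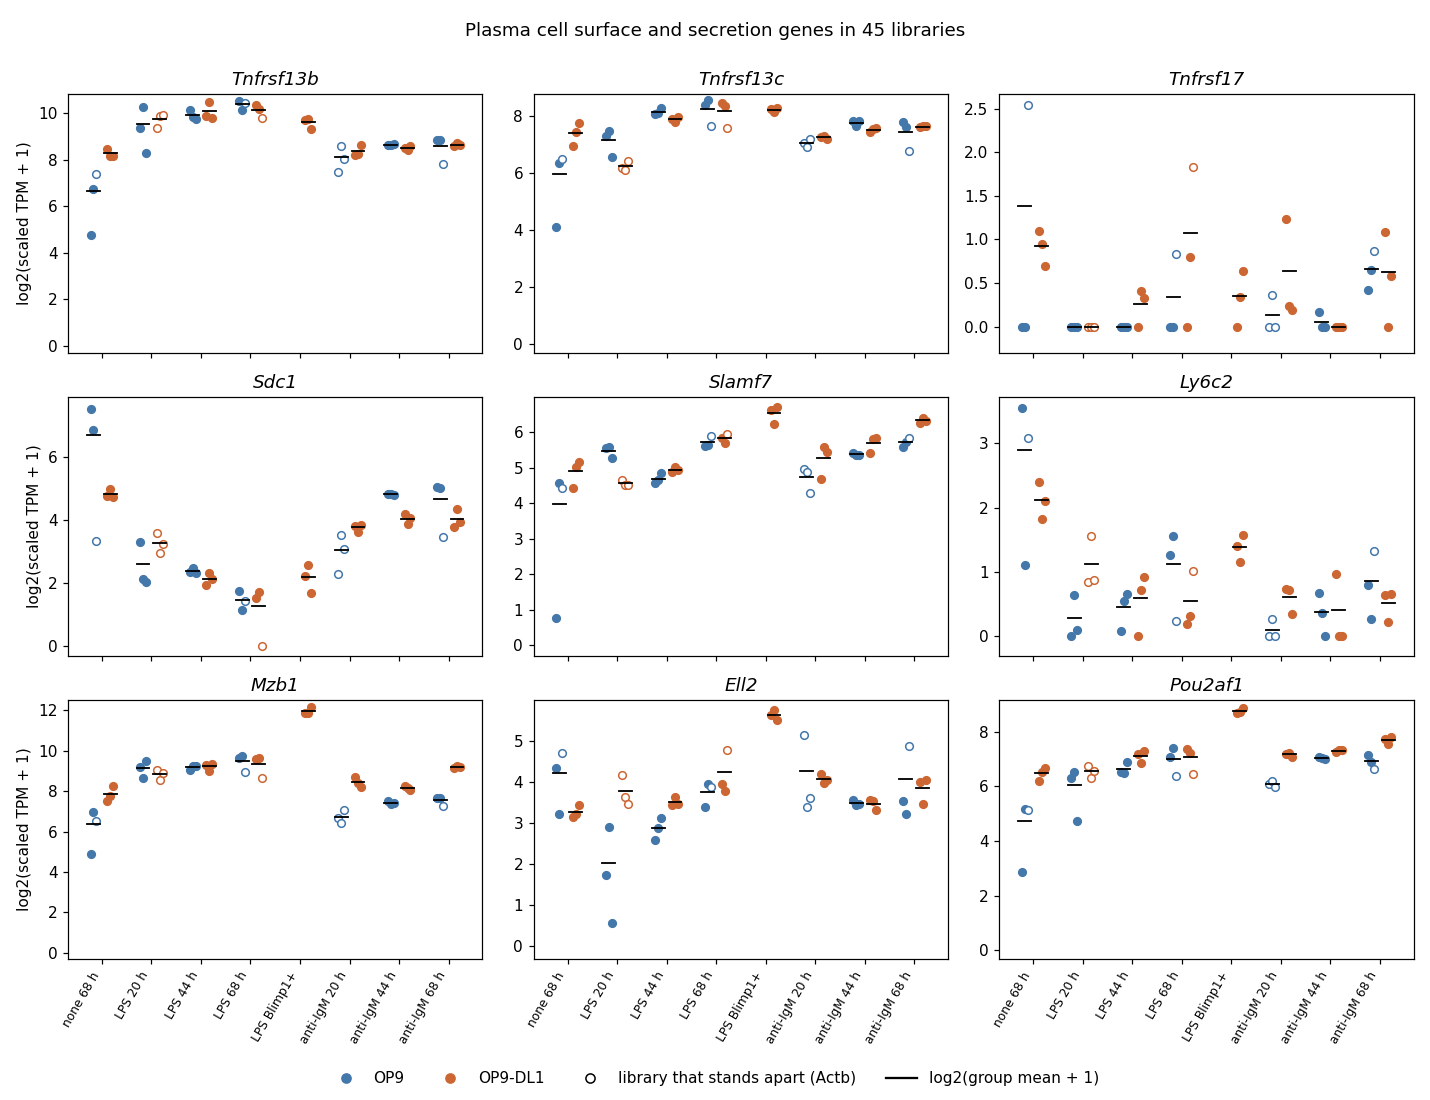
Level of each member in every library, as log2(scaled TPM + 1), by stimulus and time. Blue points are OP9 and orange points OP9-DL1, open points are the high-Actb libraries, and each line marks the log2 of the group mean plus 1. Mzb1, Ell2 and Pou2af1 peak in the Blimp1+ cells, while Sdc1 there is among the LPS values.

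The Blimp1+ cells were compared with the OP9-DL1 LPS groups at 44 h and 68 h, called cultures here. The sample titles do not say whether those groups were whole or sorted. They may thus differ from the cultures that the Blimp1+ cells were sorted from. Prdm1, the gene that carries the reporter, was 75.6 ± 7.66 scaled TPM in the Blimp1+ cells against 3.84 in the 44 h culture (log2 change 4.01, adjusted p = 2e-10). This rise was fixed in advance by the sort. Against the 44 h culture 4 of 9 members rose and 0 fell, where 12% of all genes were called and 7.02% were called higher (1096 higher and 785 lower, and 477 and 919 with TPM as deposited). Mzb1 had 3771, 3757 and 4582 scaled TPM in the Blimp1+ libraries and 636, 505 and 661 in the culture, a 6.72-fold ratio of means (log2 change 2.75 ± 0.33, adjusted p = 2.1e-07). Ell2 had 48.4, 52.1 and 43.9 against 9.74, 11.4 and 9.99, a 4.64-fold ratio (2.11 ± 0.44, adjusted p = 0.00087). Pou2af1 had 409, 417 and 464 against 143, 115 and 157, a 3.11-fold ratio (1.64 ± 0.39, adjusted p = 0.0033). Every Blimp1+ library was above every culture library for these 3 genes, and how many of all genes do the same was not counted.

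Slamf7 also rose, from 28.4, 31.2 and 29.8 to 98.2, 75 and 103 scaled TPM (1.58 ± 0.48, adjusted p = 0.023). This call was lost when replicate 1, 2 or 3 of the 44 h culture or replicate 1 or 3 of the Blimp1+ cells was left out (1.5 to 1.62, adjusted p = 0.059 to 0.085). It was also lost with TPM as deposited (1.25, adjusted p = 0.15), without immunoglobulin genes (1.6, 0.067), with a pseudocount of 0.1 (1.61, 0.075) and in the authors' deposited log2 values (1.51, 0.14). Pou2af1 was lost under 3 scalings, at 1.3 (adjusted p = 0.15) with TPM as deposited, 1.66 (0.065) without immunoglobulin genes and 1.55 (0.074) in the authors' deposited log2 values.

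The remaining surface and receptor genes were not called against the 44 h culture. Sdc1 differed by 0.04 ± 0.59 on the log2 scale. Tnfrsf13b had 848, 862 and 643 scaled TPM against 934, 1422 and 883, a difference of -0.44 ± 0.41 (adjusted p = 0.64), and the groups did not overlap in these libraries. Tnfrsf13c had 305, 282 and 316 against 239, 223 and 252 (0.34 ± 0.37, adjusted p = 0.71), and the groups did not overlap either. With only the groups compared in the fit Tnfrsf13c was called (adjusted p = 0.026). Tnfrsf17 and Ly6c2 differed by 0.08 ± 0.42 and 0.84 ± 0.42 with adjusted p of 0.99 and 0.23.

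Against the 68 h culture, 2 of 9 members rose and 0 fell, where 2.84% of all genes were called and 2.56% were called higher (400 higher and 44 lower, and 220 and 123 with TPM as deposited). Mzb1 was 766, 805 and 395 scaled TPM in that culture (log2 change 2.68 ± 0.33, adjusted p = 4.7e-07) and Pou2af1 was 163, 149 and 86.2 (1.74 ± 0.39, adjusted p = 0.0053). Without replicate 3 of the 68 h culture, a high-Actb library, Pou2af1 was 1.46 (adjusted p = 0.088). Its call also ended with TPM as deposited (1.47, adjusted p = 0.19), without immunoglobulin genes (1.82, 0.14), with quantile normalization (1.45, 0.097), in the authors' deposited log2 values (1.9, 0.065) and with only the groups compared (1.74, 0.061). Ell2 had 14.4, 12.7 and 26.3 in that culture and was not called (1.45 ± 0.44, adjusted p = 0.071), and without all high-Actb libraries it was called (1.76, adjusted p = 0.005), as it was without immunoglobulin genes (1.54, 0.044). Slamf7 differed by 0.69 ± 0.48 (adjusted p = 0.59) and Sdc1 by 1.08 ± 0.59 (adjusted p = 0.49).

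Against unstimulated OP9-DL1 cells, 5 members rose and 1 fell, where 14.6% of all genes were called, 10.3% higher and 4.25% lower. That split of all genes turned with the scaling, from 1613 higher and 663 lower to 708 higher and 2247 lower with TPM as deposited. Mzb1 rose by 4.13 ± 0.33 (adjusted p = 1.9e-11), Ell2 by 2.35 ± 0.44 (0.00017), Pou2af1 by 2.28 ± 0.39 (4.7e-05), Slamf7 by 1.65 ± 0.48 (0.015) and Tnfrsf13b by 1.34 ± 0.41 (0.023). Sdc1, the classical surface marker of plasma cells, fell: its mean in the Blimp1+ cells was 0.132 times that of the unstimulated cells (adjusted p = 0.0012). No Blimp1+ library reached the unstimulated values of 26.3, 30.4 and 25.8. The calls of Tnfrsf13b and Slamf7 ended in 4 and 3 of 45 fits without 1 library and in 4 of 10 other settings each. Tnfrsf13c differed by 0.85 ± 0.37 (adjusted p = 0.13) and was called without high-Actb libraries (0.041) and with only the groups compared (0.021).

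**Figure D2:**
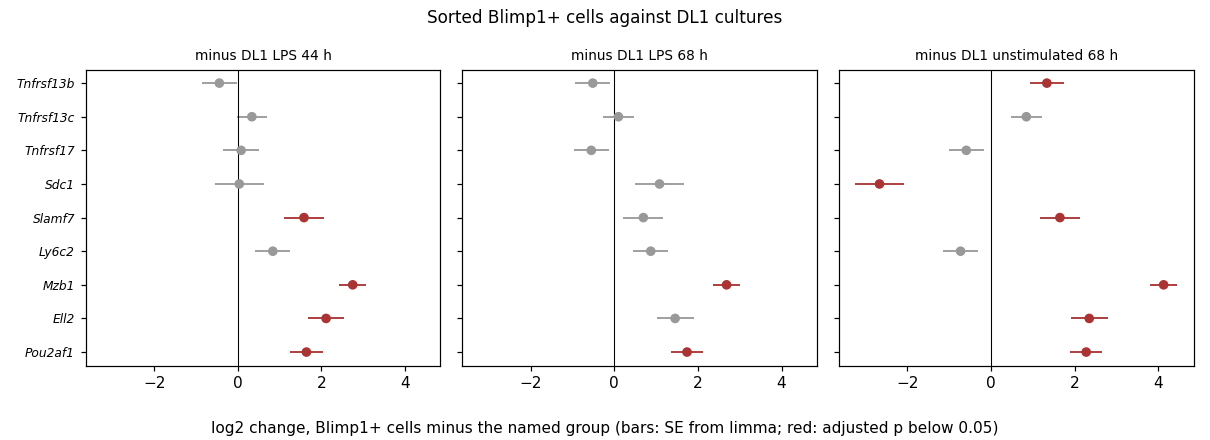
Log2 change of each member in Blimp1+ cells against OP9-DL1 LPS cultures at 44 h and 68 h and against unstimulated OP9-DL1 cells, with SE. Mzb1 is raised in all 3 comparisons, and Sdc1 lies near 0 against the 44 h culture and below 0 against unstimulated cells.

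Other listed genes of the plasma cell program also rose. Of 32 plasma cell genes outside the members that were tested, 20 rose and 0 fell against the 44 h culture (median change 1.63, all genes 0.0911). Against the 68 h culture 16 rose and 0 fell (median 1.5, all genes -0.0058). Of all genes, 7.02% and 2.56% were called higher in these comparisons. The list was chosen with earlier results of these data known, so its counts describe these libraries and are no independent support. Igj, the joining chain of secreted IgM and IgA, was 2222 against 22.6 scaled TPM at 44 h (log2 change 6.56). Xbp1 was 1288 against 142 (3.17) and Derl3, a component of ER-associated degradation, was 207 against 19.5 (3.35). Irf4, a further regulator of the program, rose by 1.36 (adjusted p = 0.0085). Against the 68 h culture, Igj rose by 9.80, Xbp1 by 3.89, Prdm1 by 3.73 and Irf4 by 2.04. The rise of Prdm1 was fixed in advance by the sort of Blimp1+ cells.

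Of 17 endoplasmic reticulum partners of Mzb1, 10 rose and 0 fell against the 44 h culture (median 1.25), and 11 rose and 0 fell against the 68 h culture (median 1.62). The lists in this paragraph were also chosen with earlier results of these data known, so their counts are no independent support. Hsp90b1, the chaperone that Mzb1 assists, was 1591 against 553 scaled TPM (log2 change 1.53, adjusted p = 2.7e-05). The co-chaperone Dnajb9 was 48.4 against 10.2 (2.13), the oxidase Ero1lb 124 against 17.5 (2.78) and the isomerase Ppib 999 against 279 (1.84). Eaf2, a partner of Ell proteins, was 213 against 45 (2.22, adjusted p = 5.6e-05), and was 1 of 2 elongation factors of 22 that rose, while 2 fell. In a list of 10 octamer factors and their partners 0 rose and 1 fell, Siah1b (-1.77), which is not itself an octamer factor. Pou2f2 was highest in the Blimp1+ cells at 100 to 114 scaled TPM. In the Ly6 family 3 of 11 rose, led by Ly6a (2716 against 597 scaled TPM, 2.19), and in the SLAM family 1 of 10 rose, Slamf6 (289 against 70.4, 2.02). Among 16 genes of the BAFF and APRIL axis 2 rose, Mcl1 (1.74) and Birc2 (1.18). No gene of 10 syndecans and their partners or of 9 candidate sheddases was called. Of all genes, 7.02% were called higher and 5.03% lower against the 44 h culture, and 2.56% higher against the 68 h culture. The few calls in the lists after the endoplasmic reticulum partners are not read as changes of those families.

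Sums of the B cell and stroma markers moved with this comparison. The B cell markers summed to 4291 to 4426 in the Blimp1+ libraries, 1225 to 1310 in the 44 h culture and 2462 to 3406 in the 68 h culture. The stroma markers summed to 121 to 198, 27.5 to 59.1 and 40.1 to 142. Their part in the changes was not tested. In sorted bulk RNA, more cells of a type and more RNA per cell cannot be told apart.

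LPS and anti-IgM were compared at a fixed stroma and time to ask how stimulation through TLR4 and through the antigen receptor differ. Sdc1 was called lower with LPS in 3 of 4 pairs, Tnfrsf13b higher in 4 of 4, and Mzb1 higher in the 2 pairs on OP9. On OP9 at 44 h, 2 members were higher and 1 lower with LPS, where 8.63% of all genes were called, 4.9% higher and 3.73% lower. In genes that was 765 against 582, and with TPM as deposited 262 against 600. On OP9 at 68 h, 2 were higher and 1 lower (4.56% of genes called, 2.82% higher and 1.74% lower). On OP9-DL1, 1 was higher and 0 lower at 44 h (2.91% of genes called, 1.52% higher), and 1 was higher and 1 lower at 68 h (4.39% called, 2.61% higher and 1.78% lower). With only the groups compared in the fits at 44 h, Slamf7 was also called lower with LPS (-0.69 on OP9, -0.74 on OP9-DL1) and Tnfrsf13c higher (0.38 and 0.37), and on OP9 Ell2 (-0.62) and Pou2af1 (-0.40) lower. Those fits called 2513 genes higher and 2481 lower on OP9, and 1340 and 1091 on OP9-DL1.

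Sdc1 on OP9 at 44 h was 4.16, 4.53 and 3.99 scaled TPM with LPS and 27.3, 27.6 and 26.9 with anti-IgM (log2 change -2.44 ± 0.59, adjusted p = 0.0054). At 68 h it was 2.37, 1.22 and 1.7 against 31.9, 31.6 and 10 (-3.06 ± 0.59, adjusted p = 0.00077). On OP9-DL1 at 68 h it was 1.9, 2.28 and 0 against 12.6, 19.4 and 14.5 (-2.94 ± 0.59, adjusted p = 0.0014). No LPS library overlapped an anti-IgM library in any of these pairs. At 44 h on OP9-DL1 the change was -1.91 ± 0.59 with adjusted p = 0.076, and with the replicate number as a block it was called (adjusted p = 0.046). It was also called without high-Actb libraries (adjusted p = 9.6e-06) and with only the groups compared (0.0013). The OP9 calls were lost in the authors' deposited log2 values (44 h, -2.83, adjusted p = 0.12 and 68 h, -3.51, 0.054), and both 68 h calls were lost with only the groups compared in the fit (0.096 on OP9 and 0.078 on OP9-DL1).

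Tnfrsf13b was higher with LPS in each of these 4 pairs, by 1.27 ± 0.41 on OP9 at 44 h (adjusted p = 0.048), 1.87 ± 0.41 on OP9 at 68 h (0.0039), 1.54 ± 0.41 on OP9-DL1 at 44 h (0.03) and 1.47 ± 0.41 on OP9-DL1 at 68 h (0.031). On OP9 at 44 h the libraries had 1138, 907 and 868 against 394, 393 and 406. On OP9-DL1 at 68 h they had 1297, 1180 and 897 against 389, 416 and 395. These groups did not overlap. The OP9 44 h call was close to the threshold: leaving out 1 library ended it in 34 of 45 fits (1.16 to 1.35, adjusted p = 0.05 to 0.18), and 6 of 10 other settings ended it. The OP9-DL1 calls ended in 6 and 5 of 45 such fits, and in 5 of 10 other settings each, TPM as deposited among them.

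Mzb1 was higher with LPS on OP9, with 521, 600 and 617 against 182, 165 and 167 scaled TPM at 44 h (1.75 ± 0.33, adjusted p = 0.00037) and 811, 853 and 488 against 204, 205 and 153 at 68 h (1.9 ± 0.33, adjusted p = 0.0002). The 44 h call was lost with TPM as deposited (1.48, adjusted p = 0.051) and without immunoglobulin genes (1.46, adjusted p = 0.061). On OP9-DL1 it differed by 1.06 ± 0.33 at 44 h (adjusted p = 0.082), where it was called without high-Actb libraries (0.024) and with only the groups compared (0.0036). It differed by 0.08 ± 0.33 at 68 h (adjusted p = 0.94), where the cultures with anti-IgM had 571, 603 and 594 and those with LPS 766, 805 and 395. Prdm1 was higher with LPS at 68 h on both stromas (1.39 on OP9, 1.35 on OP9-DL1), and Igj on OP9-DL1 was lower with LPS (-5.25).

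Each stimulus was compared with unstimulated cells at 68 h, the only time with such cells. On OP9-DL1, LPS raised 2 members and lowered 2 (8.1% of genes called, 5.54% higher and 2.56% lower). With TPM as deposited the split of all genes turned from 865 higher and 399 lower to 411 and 559. Tnfrsf13b went from 349, 289 and 286 to 1297, 1180 and 897 scaled TPM (1.85 ± 0.41, adjusted p = 0.0027) and Mzb1 from 179, 216 and 308 to 766, 805 and 395 (1.45 ± 0.33, adjusted p = 0.0032). Sdc1 had a mean 0.0507 times that of unstimulated cells (-3.75 ± 0.59, adjusted p = 2.9e-05) and Ly6c2 changed by -1.6 ± 0.42 (adjusted p = 0.012). Tnfrsf13c differed by 0.75 ± 0.37 (adjusted p = 0.24), and by 1.03 (0.043) without high-Actb libraries. The Sdc1 call held in every alternative fit, while those of Tnfrsf13b and Mzb1 were lost in 4 and 5 of 10 other settings.

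Anti-IgM on OP9-DL1 raised 3 members and lowered 1 (9.52% of genes called, 6.07% higher and 3.46% lower). Here too the split of all genes turned with TPM as deposited, from 947 higher and 540 lower to 470 and 979. Mzb1 rose by 1.36 ± 0.33 (adjusted p = 0.005), Slamf7 by 1.46 ± 0.48 (0.047) and Pou2af1 by 1.22 ± 0.39 (0.04), and Ly6c2 changed by -1.6 ± 0.42 (0.01). Sdc1 differed by -0.81 ± 0.59 (adjusted p = 0.46), and it was called at the same -0.81 without high-Actb libraries (adjusted p = 0.025) and with only the groups compared (0.026). Tnfrsf13b differed by 0.38 ± 0.41 (adjusted p = 0.65). The Mzb1 call was lost with TPM as deposited (1.05, adjusted p = 0.15), without immunoglobulin genes (1.04, 0.16), with quantile normalization (0.87, 0.21) and in the authors' deposited log2 values (1.24, 0.1). The Slamf7 call was lost in 33 of 45 fits without 1 library (1.23 to 1.61, adjusted p = 0.05 to 0.2). The Pou2af1 call was lost in 6 such fits, and each was lost in 6 of 10 other settings. Both stimuli share the same 3 unstimulated libraries as controls. Beside the members, LPS raised 6 and anti-IgM 5 of 32 plasma cell genes, and 4 and 6 of 17 endoplasmic reticulum partners, with 0 lower in each. The Ly6c2 calls rest on few reads, and on both stromas they were lost with a pseudocount of 0.1 and in the authors' deposited log2 values.

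On OP9, LPS raised 5 members and lowered 2 (30.5% of genes called, 11.4% higher and 19.1% lower), and anti-IgM raised 5 and lowered 1 (23.9% called, 8.35% higher and 15.5% lower). With LPS, Tnfrsf13b rose by 4.09 ± 0.41, Mzb1 by 3.31 ± 0.33, Tnfrsf13c by 2.55 ± 0.37, Pou2af1 by 2.55 ± 0.39 and Slamf7 by 2.46 ± 0.48, and Sdc1 changed by -4.45 ± 0.59 and Ly6c2 by -1.56 ± 0.42. With anti-IgM, Pou2af1 rose by 2.5 ± 0.39, Slamf7 by 2.46 ± 0.48, Tnfrsf13b by 2.22 ± 0.41, Tnfrsf13c by 1.74 ± 0.37 and Mzb1 by 1.41 ± 0.33, and Ly6c2 changed by -1.78 ± 0.42. Every one of these comparisons rests on the unstimulated OP9 libraries with high stroma sums. Replicate 1 of that group moved several: without it the LPS changes were 3.31 for Tnfrsf13b, 2.7 for Mzb1, 1.77 for Tnfrsf13c, 1.78 for Pou2af1, 1.21 for Slamf7 and -3.64 for Sdc1, all still called, while Ly6c2 was -1.08 and no longer called (adjusted p = 0.064). Sdc1 was -5.74 without replicate 3. The anti-IgM changes without replicate 1 were 1.45 for Tnfrsf13b, 0.96 for Tnfrsf13c, 0.80 for Mzb1, 1.22 for Slamf7 and 1.74 for Pou2af1. Ly6c2 was -2.3 with LPS and -2.52 with anti-IgM without replicate 2. Without high-Actb libraries the Ly6c2 call with LPS ended (-0.92, adjusted p = 0.14), and Sdc1, which with anti-IgM was -1.39 ± 0.59 (adjusted p = 0.087), was called lower (-2.15, adjusted p = 4.4e-06). With only the groups compared in the fit, Tnfrsf13b and Mzb1 with LPS were still called, and the other 5 LPS calls (adjusted p = 0.057 to 0.26) and all 6 anti-IgM calls (0.13 to 0.3) ended.

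The Notch ligand was compared at a fixed stimulus and time. In stimulated cells from 44 h on, only Mzb1 with anti-IgM at 68 h was called among the members. With LPS, 0 of 9 were called at 44 h (0.16% of genes) and 0 of 9 at 68 h (0.064%), and with anti-IgM 0 of 9 at 44 h (0.897%). In these 27 tests limma gave 1 unadjusted p under 0.05, Mzb1 with anti-IgM at 44 h (0.74 ± 0.33, adjusted p = 0.48). With only the groups compared in the fit, 3 were called there, Sdc1 lower and Mzb1 and Pou2af1 higher on OP9-DL1. That fit called 1446 of 15614 genes higher and 1054 lower.

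With anti-IgM at 68 h, 1 member was higher on OP9-DL1 and 0 lower (1.73% of genes called, 1.11% higher). Mzb1 was 204, 205 and 153 scaled TPM on OP9 and 571, 603 and 594 on OP9-DL1, without overlap, a 3.14-fold ratio of means (1.66 ± 0.33, adjusted p = 0.0068). Without high-Actb libraries it was 1.52 (adjusted p = 0.0075). The call was lost with quantile normalization (1.4, adjusted p = 0.066) and with only the groups compared (1.66, 0.13). Under LPS at 68 h the same difference was -0.16 ± 0.33, and the difference between the ligand effects was -1.82 (adjusted p = 0.082), so a difference between stimuli was not shown. Igj moved with Mzb1 here (94.7 against 9.96 scaled TPM, 3.23, adjusted p = 0.00037), as did Derl3 (2.35) and Sdf2l1 (1.52). In the list of 32 tested plasma cell genes outside the members the count was 3 higher and 0 lower, and 1 of 17 endoplasmic reticulum partners was higher. Without high-Actb libraries Sdc1 was called lower on OP9-DL1 (-1.01, adjusted p = 0.041).

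**Figure D3:**
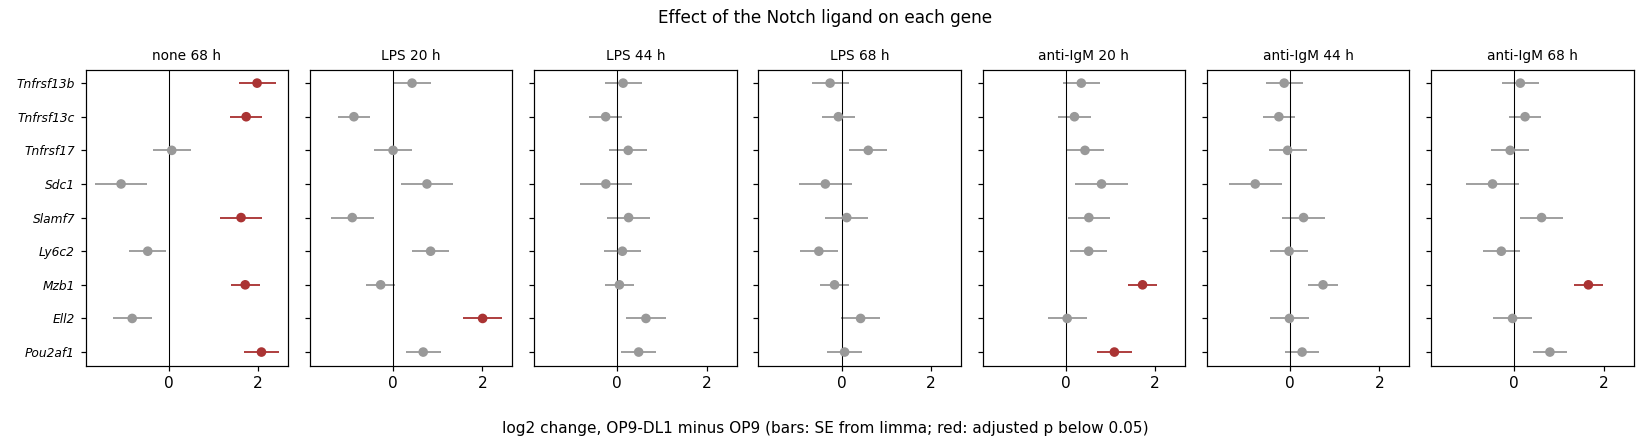
Log2 change of each member on OP9-DL1 relative to OP9, with SE, for each of 7 conditions. Red points are called. With LPS at 44 h and 68 h the 9 members lie between -0.51 and 0.64 and none is called, and with anti-IgM at 68 h Mzb1 stands at 1.66.

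At 20 h the ligand and the high-Actb libraries cannot be told apart, because with each stimulus all 3 libraries of one stroma are of that kind. With LPS, 1 member was higher on OP9-DL1 and 0 lower (8.81% of genes called, 4.4% higher). Ell2 was 2.35, 6.46 and 0.491 scaled TPM on OP9 and 17, 11.3 and 9.94 on OP9-DL1 (2.01 ± 0.44, adjusted p = 0.0034), and it was 1.42 (adjusted p = 0.037) without replicate 3 of OP9. The call ended with only the groups compared in the fit (adjusted p = 0.2). With anti-IgM, 2 were higher and 0 lower (20.5% of genes called, 10.2% higher). Mzb1 was 99.3, 84.9 and 134 on OP9 and 414, 338 and 294 on OP9-DL1 (1.72 ± 0.33, adjusted p = 0.0014). Pou2af1 was 66.3, 72.4 and 61.2 against 145, 148 and 134 (1.09 ± 0.39, adjusted p = 0.045), a call that ended in 17 of 45 fits without 1 library (adjusted p = 0.05 to 0.12).

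In unstimulated cells 5 members were higher on OP9-DL1 and 0 lower, where 26.5% of all genes were called, 8.84% higher and 17.6% lower. In genes that was 1380 against 2752, and with TPM as deposited 2004 against 1982. Pou2af1 was 6.29, 35.2 and 34.3 scaled TPM on OP9 and 72.3, 91.8 and 101 on OP9-DL1, a 3.5-fold ratio of means (adjusted p = 9.1e-05). Mzb1 was 28.8, 126 and 90 against 179, 216 and 308 (1.71 ± 0.33, adjusted p = 0.00013). Tnfrsf13b was 25.8, 107 and 164 against 349, 289 and 286 (1.98 ± 0.41, adjusted p = 0.00037). Tnfrsf13c was 16.1, 81.6 and 89.6 against 122, 174 and 218 (1.73 ± 0.37, adjusted p = 0.0004). These 4 did not overlap between the stromas, and how many of all genes do not overlap here was not counted. Slamf7 was 0.709, 22.7 and 20.7 against 20.6, 31.7 and 35.1, which overlapped (1.62 ± 0.48, adjusted p = 0.0098). Without replicate 1 of OP9 it was 0.38 (adjusted p = 0.28), and the other calls stood at 1.31 for Pou2af1, 1.09 for Mzb1, 1.2 for Tnfrsf13b and 0.95 for Tnfrsf13c. With only the groups compared in the fit all 5 calls ended (adjusted p = 0.12 to 0.4). Sdc1 was -1.07 ± 0.59 (adjusted p = 0.19). Without high-Actb libraries, replicate 3 of OP9 among them, 6 members were called higher and 1 lower: Sdc1 was lower on OP9-DL1 (-2.36, adjusted p = 2.6e-07) and Tnfrsf17, with few reads, higher (0.91, adjusted p = 0.009). That fit called 2620 of 15614 genes higher and 3900 lower. For Tnfrsf17 it left out replicate 3 of OP9, which held the highest value of the 45 libraries (4.82 scaled TPM). Replicates 1 and 2 of OP9 were at 0. With all libraries the Tnfrsf17 mean was 1.61 on OP9 and 0.896 on OP9-DL1.

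The amount of B cell RNA moved with this comparison. The B cell markers summed to 355.9, 1768 and 2709 in the OP9 libraries, in replicate order, and to 4247 to 4349 in the OP9-DL1 libraries, and the stroma markers on OP9-DL1 to 119.8 to 247.2. Per 1000 TPM of B cell markers, Tnfrsf13b was 72.4, 60.5 and 60.7 on OP9 and 81.1, 68.1 and 65.8 on OP9-DL1. On the same scale Mzb1 was 80.9, 71.2 and 33.2 against 41.7, 50.8 and 70.9, and Pou2af1 was 17.7, 19.9 and 12.7 against 16.8, 21.6 and 23.3. In a fit scaled by these markers, chosen after seeing the data, 0 members were higher and 3 lower on OP9-DL1: Sdc1 (-2.87), Ell2 (-2.49) and Ly6c2 (-1.94). Of the 15614 genes tested, 83 were higher and 9637 lower there, so lower values were common to most genes. In that fit Tnfrsf13b was 0.15, Pou2af1 0.30, Slamf7 0.14, Tnfrsf13c -0.08 and Mzb1 -0.12, and the median of all genes moved from -0.186 to -1.53. All 5 calls were thus lost under this scaling, and the values of Tnfrsf13c and Mzb1 changed sign to just below 0 (adjusted p = 0.83 and 0.76). Scaled by B cell markers, LPS on OP9 raised 5 members and lowered 3, and anti-IgM raised 1, Slamf7 (1.03), and lowered 3. Of the 15614 genes, 407 were higher and 8564 lower with LPS, and 213 and 9072 with anti-IgM.

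**Figure D4:**
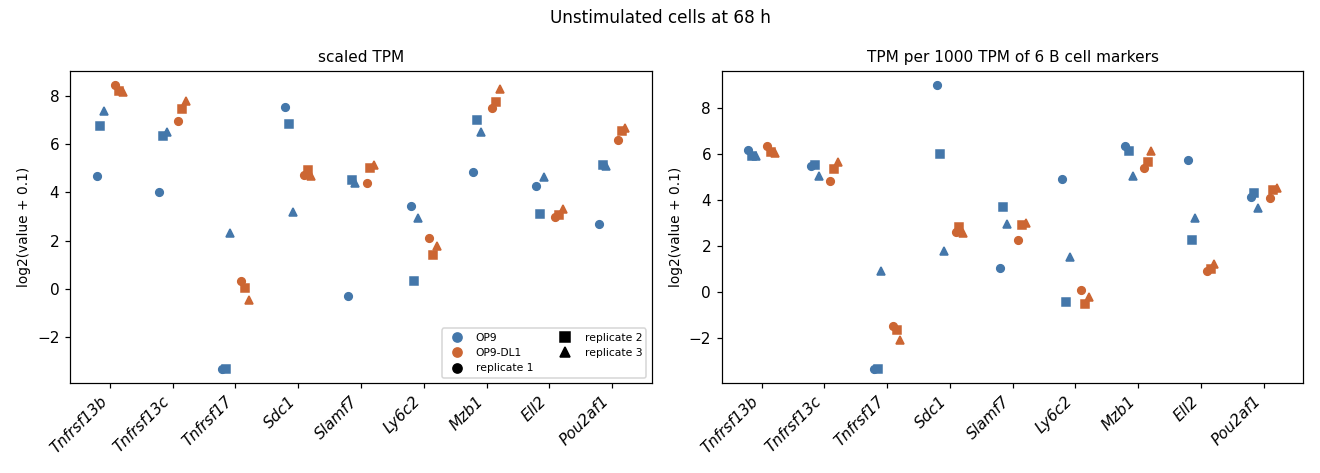
Members in the 6 unstimulated libraries as log2(value + 0.1), of scaled TPM (left) and of the value per 1000 TPM of the 6 B cell markers (right). Colour gives the stroma and marker shape the replicate. Tnfrsf13b, Tnfrsf13c, Mzb1 and Pou2af1 are separated by stroma on the left and overlap on the right.

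The difference between ligand effects was tested directly. At 20 h the ligand effect with LPS minus that with anti-IgM was above 0 for 1 member, Ell2, and below 0 for 1, Mzb1 (19.4% of genes called, 9.95% above and 9.45% below). At 68 h the ligand effect was smaller with LPS than in unstimulated cells for 4 members (16.1% of genes called, 4.36% below 0), and smaller with anti-IgM than in unstimulated cells for 2 (15.6% called, 4.17% below 0). Without high-Actb libraries, Sdc1 was also called in both (2.53 with LPS, 1.35 with anti-IgM) and Pou2af1 with anti-IgM (-1.77). In that fit 2714 genes were above 0 and 1446 below with LPS, and 3453 and 2183 with anti-IgM. The 68 h differences from unstimulated cells rest on the unstimulated OP9 libraries with high stroma and low B cell marker sums. Without replicate 1 of that group the calls of Tnfrsf13c (adjusted p = 0.074) and Pou2af1 (0.06) with LPS ended. So did those of Tnfrsf13b (0.18) and Tnfrsf13c (0.28) with anti-IgM. B cell marker scaling was not run for these differences. Between LPS and anti-IgM 0 differed at 44 h (0.0833%) and 0 at 68 h (0.199%), with 0 and 1 of 9 at an unadjusted p under 0.05 in limma. Between 68 h and 44 h 0 differed with LPS (0.0128%) and 0 with anti-IgM (0%), with 0 of 18 at an unadjusted p under 0.05.

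Over time no member was called in 6 steps, 0 of 54 limma tests, with 4 at an unadjusted p under 0.05. Those were Tnfrsf13c (1.04) and Ell2 (1.12) with LPS on OP9 from 20 to 44 h, Slamf7 (1.03) with LPS on OP9 from 44 to 68 h and Mzb1 (1.04) with anti-IgM on OP9-DL1 from 44 to 68 h. Mzb1 in that last step went from 308, 283 and 270 to 571, 603 and 594 scaled TPM, without overlap. The share of all genes called was 1.74% for LPS on OP9 from 20 to 44 h, 6.91% and 7.18% for LPS from 44 to 68 h on OP9 and OP9-DL1, and 0.0576%, 0.179% and 0.0128% for the 3 anti-IgM steps. Without high-Actb libraries 3 were called, Tnfrsf13c and Ell2 from 20 to 44 h and Sdc1 (-0.93) from 44 to 68 h, all with LPS on OP9. Of 15614 genes, 821 were then called higher and 594 lower in the first of these steps, and 999 and 1009 in the second.

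Among the members, Sdc1 and Tnfrsf13b ran in opposite directions over the 15 group means (r = -0.866, and -0.871 over the 35 libraries without high Actb). Slamf7 and Pou2af1 ran together (0.859 and 0.849), as did Tnfrsf13b and Tnfrsf13c (0.695 and 0.875). These coefficients describe points that share libraries and scaling. By the same measure over 9136 genes with at least 10 scaled TPM in a group, the genes most like Mzb1 included Ighg3 (0.941) and Gstt2 (0.937). Those most like Ell2 were Dnajc3 (0.894), Cgrrf1 (0.862) and Nfxl1 (0.858), and those most like Pou2af1 included Gramd3 (0.906) and Tmem154 (0.904). Tmem154 also led the list of Slamf7 (0.925), followed by Cyba (0.924) and Ptprcap (0.919). For Sdc1 they were Tmem86a (0.901), Synpo (0.896) and Tgfb3 (0.875), and for Tnfrsf13b Snrnp25 (0.932) stood between Zbtb32 and Batf. Ncf1 (0.909) and Myo1g (0.897) were closest to Tnfrsf13c, and Fcgrt (0.918), Ifit3 (0.912) and Trim47 (0.887) to Ly6c2. For Tnfrsf17, with few reads, the coefficients were 0.83 (Mroh1), 0.822 (Golga2) and 0.789 (Dcdc2b).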

How the data were processed

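RNA of 45 libraries was measured by sequencing of cDNA. Per the submitters' processing notes, kallisto and limma were used with the builds GRCm38 and mm10; versions, the transcript set and the summing to genes are not given in the sources used here. The authors deposited TPM per gene symbol (92.1% to 96% of 1e+06 per library) and a table of log2 values, which the numbers show to be log2 of an estimated count plus 0.5, scaled to 1e+06 of the library total plus 1; read depth was solved from it. Sources differ on the cDNA kit, and which of the 2 sequencing instruments ran each library is not stated.

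Each library's TPM were scaled with a median-ratio size factor (0.442 to 1.43), and log2(value + 1) was tested with limma 3.58.1 in R 4.3.3: 15 group means, all 45 libraries, moderated variance with trend and robust settings, and Benjamini-Hochberg adjustment over 15614 genes of each comparison with at least 1 TPM in 3 libraries. In all, 31 comparisons of the 9 members gave 279 tests. All members were named, and genes of fixed lists where called (at most 4 per list and comparison), with a few ligands and partners; pattern neighbours were the 3 highest Pearson r over group means, some of which are not reported here. The members and lists were chosen with earlier results of these data known. The code was tested on simulated data.

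Alternatives were TPM as deposited, immunoglobulin genes left out, quantile normalization, the authors' log2 table, a filter at 5 TPM, no filter, a pseudocount of 0.1, only the groups compared, a replicate block, no high-Actb libraries, each library left out in turn and, added after seeing the data, B cell marker scaling. The labels give shared replicate numbers but not what they pair. The 20 to 44 h steps of groups whose 20 h libraries all had high Actb were not tested.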

Additional observations from a re-analysis of the deposited data

Results flagged for a closer look

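In 8 tests the effect of the Notch ligand on a member differed between conditions at an adjusted p under 0.05 (limma, Benjamini-Hochberg). At 20 h the OP9-DL1 minus OP9 difference with LPS minus that with anti-IgM was -2 ± 0.47 for Mzb1 (adjusted p = 0.0048) and 1.98 ± 0.62 for Ell2 (adjusted p = 0.025); the high-Actb libraries make up all of 1 stroma in each arm, so ligand and library kind cannot be told apart. At 68 h the difference with LPS minus that in unstimulated cells was -2.23 ± 0.59 for Tnfrsf13b (adjusted p = 0.0066), -1.8 ± 0.52 for Tnfrsf13c (0.013), -1.87 ± 0.47 for Mzb1 (0.0043) and -2.01 ± 0.55 for Pou2af1 (0.0097). With anti-IgM in place of LPS it was -1.84 ± 0.59 for Tnfrsf13b (0.027) and -1.49 ± 0.52 for Tnfrsf13c (0.045). The 68 h values all use the unstimulated OP9 libraries with high stroma and low B cell marker sums. Without replicate 1 of that group they were -1.46 for Tnfrsf13b (adjusted p = 0.044), -1.03 for Tnfrsf13c (0.074), -1.25 for Mzb1 (0.028) and -1.24 for Pou2af1 (0.06) with LPS, and -1.07 for Tnfrsf13b (0.18) and -0.71 for Tnfrsf13c (0.28) with anti-IgM. The Ell2 value was 1.39 (adjusted p = 0.089) without replicate 3 of OP9 with LPS at 20 h.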

How the results depend on the processing

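Of 59 member calls, 12 held under every alternative that was run for them: Mzb1 and Ell2 in Blimp1+ cells against the 44 h culture, Mzb1 against the 68 h culture, Sdc1, Mzb1, Ell2 and Pou2af1 against unstimulated cells, Sdc1 with LPS against unstimulated OP9-DL1, Tnfrsf13b and Mzb1 with LPS against unstimulated OP9, and Mzb1 with anti-IgM at 20 h and in its 20 h interaction. The Mzb1 calls at 20 h could not be fitted without high-Actb libraries, because these make up all of 1 stroma. B cell marker scaling was run only for direct comparisons with unstimulated OP9. With only the groups compared in the fit, 3 members instead of 6 were called between stromas at 44 and 68 h. The counts were 9 instead of 21 between stimulated and unstimulated cells, 4 instead of 0 over time and 2 instead of 8 interactions. They were 13 instead of 9 between LPS and anti-IgM and 13 instead of 12 for Blimp1+ cells. Calls over all genes also moved in either direction. Between unstimulated stromas 214 genes were higher and 890 lower, against 1380 and 2752 in the main fit. Between stromas with anti-IgM at 44 h they were 1446 and 1054, against 84 and 56. In the authors' log2 table the calls were 12 of the 21, 4 instead of 9 between LPS and anti-IgM, 7 instead of 12 for Blimp1+ cells and 5 instead of 8 interactions. Between LPS and anti-IgM, 5 were called with TPM as deposited, 5 without immunoglobulin genes and 5 with quantile normalization. Without high-Actb libraries 3 were called over time, and no count could be had at 20 h or over all interactions. The causes were not tested. Leaving out 1 library gave 5 to 8 calls between stromas at 44 and 68 h, 2 to 5 at 20 h (3 with all), 17 to 22 between stimulated and unstimulated cells, 7 to 13 between LPS and anti-IgM, 0 to 4 over time, 9 to 13 for Blimp1+ cells and 6 to 13 interactions. The replicate block ended 0 calls and added 1 (Sdc1, LPS against anti-IgM on OP9-DL1 at 44 h, -1.91, adjusted p = 0.046). Of 21 same-numbered pairs of libraries across stromas, 8 had deviations from the group means that correlated above 0.1 (-0.173 to 0.774), all 3 of them only with LPS at 68 h, so a shared number was not taken as a pairing. B cell marker scaling turned 4 values: Tnfrsf13c -0.0823 and Mzb1 -0.117 between unstimulated stromas, and Tnfrsf13c -0.00741 and Mzb1 -0.344 for anti-IgM against unstimulated OP9. It left 83 genes higher and 9637 lower on OP9-DL1 in unstimulated cells, against 1380 and 2752 with size factors. Depth limits Tnfrsf17 and Ly6c2, which a filter at 5 TPM removed.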
